A study of Mus musculus with 16 samples.

Results

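The alpha-adrenergic receptors are the 6 G protein-coupled receptors encoded by Adra1a, Adra1b, Adra1d, Adra2a, Adra2b and Adra2c. They were taken by gene name, 6 of the 38003 genes in a single-cell RNA count table of mouse lung, and all 6 names were in the table. In these lungs Adra1a was mostly a transcript of alveolar fibroblasts, Adra1b was low and shared by alveolar and adventitial fibroblasts, and Adra1d, Adra2a, Adra2b and Adra2c gave between 0 and 109 transcripts each. In the comparisons between groups, Adra1a of alveolar fibroblasts was the only receptor to pass the test: it was lower in lungs under BIBO3304 with PDAC cells than in lungs under BIBO3304 without them. The 15 samples were lungs of mice given 6-OHDA with PDAC cells, BIBO3304 with PDAC cells or vehicle with PDAC cells (2 samples each), and 6-OHDA, BIBO3304 or vehicle without PDAC cells (3 samples each). They are called 6-OHDA-PDAC, BIBO3304-PDAC, vehicle-PDAC, 6-OHDA, BIBO3304 and vehicle below. PDAC is pancreatic ductal adenocarcinoma. 6-OHDA is a toxin taken up by sympathetic nerve terminals, which it destroys, and BIBO3304 blocks NPY1R, a receptor for the sympathetic co-transmitter neuropeptide Y. The study's title places both treatments in a question about sympathetic neurons and lung seeding. The sources used here do not state strain, age, doses or the times between treatment, seeding and collection.

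Alpha-adrenergic receptors bind norepinephrine, which sympathetic nerve endings release, and epinephrine from the adrenal gland. The alpha-1 receptors (Adra1a, Adra1b, Adra1d) couple to G proteins of the Gq class, which activate phospholipase C, release calcium through inositol trisphosphate receptors and activate protein kinase C; in smooth muscle they drive contraction. The alpha-2 receptors (Adra2a, Adra2b, Adra2c) couple to Gi/o proteins, which lower cyclic AMP. Adra2a and Adra2c are best known as autoreceptors on the sympathetic endings themselves, whose cell bodies lie in ganglia outside the lung. Sympathetic neurons were not among the annotated cell types here, and the bearing of this on the levels of Adra2a and Adra2c was not tested.

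Both classes can be read in their coding sequence. The 60 coding bases around the Asp-Arg-Tyr motif, which sits at the inner end of a membrane helix of these receptors and takes part in G protein coupling, are shown because they separate alpha-1 from alpha-2 members. They run 5′ to 3′ on the coding strand, from GRCm38 transcripts, and capitals mark the codons of Asp-Arg-Tyr.
Adra1a: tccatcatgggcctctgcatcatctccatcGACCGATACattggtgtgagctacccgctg
Adra1b: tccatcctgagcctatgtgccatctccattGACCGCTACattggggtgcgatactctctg
Adra1d: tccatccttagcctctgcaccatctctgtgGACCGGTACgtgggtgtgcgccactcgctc
Adra2a: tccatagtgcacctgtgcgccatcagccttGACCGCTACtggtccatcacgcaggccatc
Adra2b: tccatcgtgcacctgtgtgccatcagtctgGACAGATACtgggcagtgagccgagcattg
Adra2c: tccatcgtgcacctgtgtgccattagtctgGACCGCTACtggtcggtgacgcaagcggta
Members of 1 class shared 43 to 49 of these 60 bases, and members of different classes shared 32 to 37. The genes lie on chromosomes 14 (Adra1a), 11 (Adra1b), 2 (Adra1d and Adra2b), 19 (Adra2a) and 5 (Adra2c). Over the whole coding sequence Adra1a was 64.7% identical to Adra1b and 63.3% identical to Adra1d, with 15 and 20 bases as the longest shared runs. The longest run shared by any pair of members was 26 bases, between Adra2a and Adra2c.

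The table held 80449 cells that the authors had assigned to 22 cell types, with 10003796 to 32580698 transcripts per sample and a median of 2307 transcripts per cell. Cells were live-sorted and barcoded by split pooling, and each of the 16 sublibraries held cells of all 15 samples. Of 70289 distinct barcodes, 8740 occurred in more than 1 sublibrary and 0 in more than 1 sample. The labels do not say whether numbered samples are separate mice, so a p-value here measures only how far these samples spread. Annotated cancer cells numbered 75 and 71 in 6-OHDA-PDAC, 33 and 73 in BIBO3304-PDAC, 56 and 0 in vehicle-PDAC and 0 to 2 in each sample without PDAC cells. The second vehicle-PDAC sample thus held no annotated cancer cell, and the main receptor results that use it are also given without it. The types the receptors turn on carried their markers: 4 of 5 alveolar fibroblast markers and 4 of 5 adventitial fibroblast markers were highest in their own type, as were 4 of 5 peribronchial fibroblast markers and all 5 smooth muscle and all 5 pericyte markers in the joint smooth muscle cell and pericyte type. The exceptions were Ces1d, highest in ciliated cells, Dpp4, highest in mesothelial cells, and Pdgfra, highest in alveolar fibroblasts.

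Adra1a, the alpha-1A receptor, gave 27071 transcripts in 8472 cells, and 25570 of them, 94.5%, were in alveolar fibroblasts, a type with 18.1% of all cells and 19.7% of all transcripts. In CPM, the number of transcripts of a gene per 1000000 transcripts of its type, the mean level in alveolar fibroblasts was 429 ± 151 CPM (SD, n = 15 samples), and single samples ran from 248 to 728 CPM. Peribronchial fibroblasts followed with 93.4 ± 46.6 CPM (23.9 to 180 CPM), and smooth muscle cells and pericytes with 22.6 ± 19.7 CPM, a mean that rested on 30 transcripts. Adventitial fibroblasts had 22.04 ± 7.42 CPM (11.1 to 32.5 CPM). Thus 4 mesenchymal types led the order. Cancer cells had 12.6 ± 3.98 CPM over the 5 samples with enough of them, and the means of the other 17 types lay between 0 and 8.47 CPM. Club cells had no Adra1a transcript in 161 cells.

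Neighbouring types in this order were compared within samples by exact two-sided sign-flip permutation tests on log2(CPM + 1), with p-values adjusted over the 24 neighbour pairs of Adra1a and Adra1b. Alveolar fibroblasts exceeded peribronchial fibroblasts in 15 of 15 samples, by 2.31 on the log2 scale (SD 0.71, adjusted p = 0.00146). Peribronchial fibroblasts exceeded smooth muscle cells and pericytes in 14 of 15 samples, by a mean of 2.82 (adjusted p = 0.00513). Smooth muscle cells and pericytes did not differ beyond their spread from adventitial fibroblasts, being higher in 7 of 15 samples (adjusted p = 0.416); the mean of log2 differences had the opposite sign to the difference in mean CPM, at -0.92. No lower pair of neighbours passed the test, and pairs with cancer cells, present in 4 or 5 samples, could not have passed. The steps in the order that stood out from the spread between samples were therefore the top 2.

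**Figure D1:**
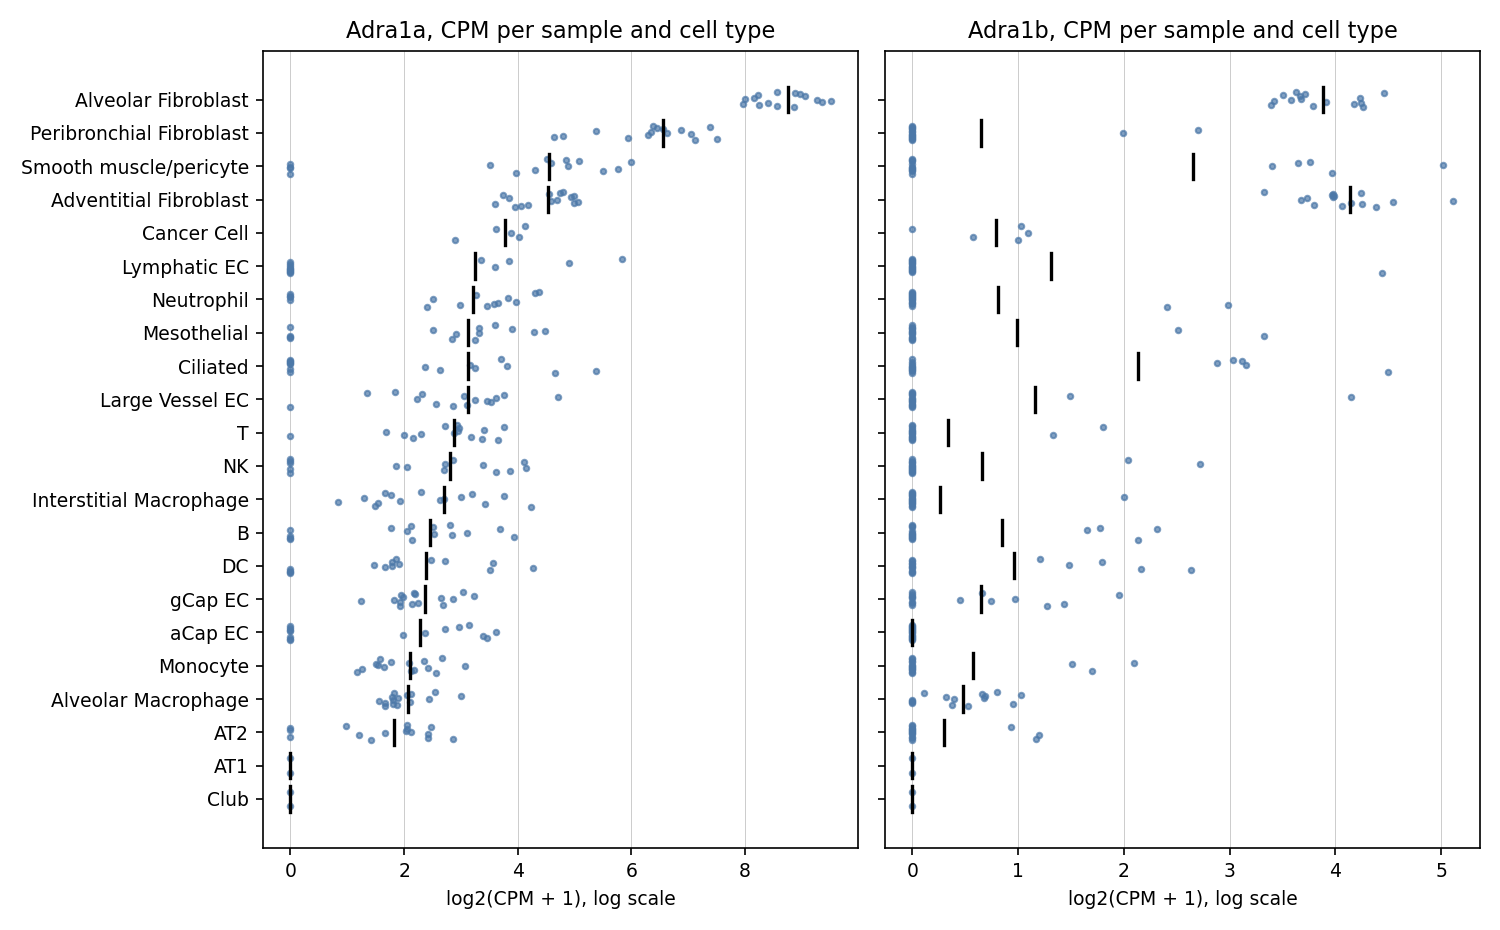
Level of Adra1a (left) and Adra1b (right) as log2(CPM + 1) in each annotated cell type, with 1 dot per sample that had at least 20 cells of the type and a black line at log2(mean CPM + 1). For Adra1a the 15 samples of alveolar fibroblasts (248 to 728 CPM) lie above every sample of peribronchial fibroblasts (23.9 to 180 CPM). For Adra1b alveolar and adventitial fibroblasts overlap.

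At the level of cells, 50.2% of 14592 alveolar fibroblasts had an Adra1a transcript (95% Clopper-Pearson interval 49.4 to 51.0, which covers counting error only). With each cell thinned to 1000 transcripts the share was 29.4% of 12654 cells (28.6 to 30.2), and 1938 shallower cells were left out. Peribronchial fibroblasts gave 12.1% of 1022 cells before thinning and 7.52% after, and adventitial fibroblasts 5.70% of 4157 cells and 1.95%. Alveolar macrophages, a type taken as a guide to free RNA, gave 1.38% of 23624 cells at a median depth of 2932 transcripts, with 3.18 ± 1.34 CPM. The 13.1% of 312 cancer cells with an Adra1a transcript came from very deep cells, with a median of 19016 transcripts, and after thinning 2 of 304 cancer cells (0.658%, interval 0.0798 to 2.36) had one, against 0.507% of thinned alveolar macrophages (0.416 to 0.612). These intervals overlapped. The pooled levels over all transcripts did not, with 12.6 CPM (95% Poisson interval 10.3 to 15.3) in cancer cells and 3.55 CPM (3.19 to 3.95) in alveolar macrophages. On this pooled scale some other types overlapped cancer cells. Among them were lymphatic endothelium, with 11.3 CPM (6.00 to 19.3), and alveolar type 1 cells, with 13.1 CPM (4.80 to 28.5) from 6 transcripts. The part of free RNA in the cancer cell level was not tested.

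Within alveolar fibroblasts the share with Adra1a followed depth: it was 22.1% in cells under 1000 transcripts, 53.8% between 2000 and 5000, and 86.0% from 10000 up. The level moved less over the same bins, with 415.9, 430 and 587 CPM. Positive cells held a median of 2 Adra1a transcripts, 1527 cells held 5 or more and 504 held 10 or more. The 16 sublibraries, which are technical splits, each gave between 418 and 533 CPM of Adra1a in alveolar fibroblasts.

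As a description, Adra1a was set against 5 alveolar fibroblast markers (Npnt, Tcf21, Ces1d, Inmt and Slc7a10) in each type. Some of these markers were also found at high levels in other types. Inmt had a mean of 524 CPM in adventitial fibroblasts, and Npnt had 334 CPM in smooth muscle cells and pericytes. The numbers below thus depend on the markers as well as on Adra1a, and the part of free RNA was not tested. Of every 100 transcripts of Adra1a and these markers together, 15.2 were Adra1a in alveolar fibroblasts and 48.5 in peribronchial fibroblasts (95% interval 44.0 to 53.0, counting error only). The corresponding number was 3.71 in adventitial fibroblasts, 5.46 in smooth muscle cells and pericytes and 6.77 in alveolar macrophages. Peribronchial fibroblasts thus had more Adra1a per alveolar marker than alveolar fibroblasts themselves. Their 124 Adra1a-positive cells had 8835 CPM of peribronchial markers, against 6683 CPM in the 898 negative cells, and 119 CPM of alveolar markers, against 105 CPM. In smooth muscle cells and pericytes the 26 positive cells had 4207 CPM of muscle markers, against 8836 CPM in the 641 negative cells. In adventitial fibroblasts the 237 positive cells had 1831 CPM of adventitial markers, against 2421 CPM in the 3920 negative cells, and 808 CPM of alveolar markers, against 583 CPM. Adra1a-positive cells thus had the higher sum of their own type's markers in peribronchial fibroblasts and the lower one in adventitial fibroblasts and in smooth muscle cells and pericytes, and the part of other cell types in this was not tested.

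Adra1b, the alpha-1B receptor, gave 1088 transcripts in 846 cells, 721 of them (66.3%) in alveolar fibroblasts and 263 in adventitial fibroblasts. Adventitial fibroblasts had 16.6 ± 5.75 CPM (9.04 to 33.5 CPM over 15 samples) and alveolar fibroblasts 13.8 ± 3.67 CPM (9.52 to 21.01 CPM). These ranges overlapped, adventitial fibroblasts were higher in 11 of 15 samples, and the difference did not pass the exact sign-flip permutation test (adjusted p = 0.326). Alveolar fibroblasts exceeded smooth muscle cells and pericytes, with 5.31 ± 9.09 CPM from 7 transcripts, in 12 of 15 samples (adjusted p = 0.0132). Peribronchial fibroblasts, second for Adra1a, held 2 Adra1b transcripts, or 0.832 CPM over all samples. An Adra1b transcript was found in 4.57% of adventitial and 3.79% of alveolar fibroblasts.

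Per kb of exon, Adra1a had a pooled 54.8 CPM per kb in alveolar fibroblasts and Adra1b 3.99. This scale takes counts to rise with exon length, which was not tested here. In peribronchial fibroblasts Adra1a had 11.6 CPM per kb and Adra1b 0.246. In adventitial fibroblasts the order of the 2 genes depended on the scale. Adra1a had 2.65 CPM per kb there and Adra1b 4.90, but without division by exon length the pooled levels were 23.1 and 16.6 CPM. Both receptors occurred in the same cells: of 553 alveolar fibroblasts with Adra1b, 350 (63.3%) also had Adra1a, and of 1065 with Adrb3, a beta-adrenergic receptor, 767 (72.0%) did. Cells with Adra1a were deeper, with a median of 3519 transcripts against 1987 in cells without it, and the part of depth in these shares was not tested.

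The genes whose pattern over the 22 types was most like that of Adra1a, by Pearson's r of log2(mean CPM + 1), were Bmper (0.947), Adamts8 (0.937), Ism1 (0.923), Ms4a4d (0.921) and Ednra (0.919). For Adra1b they were Brinp1 (0.922), Tcf21 (0.900), Adcyap1r1 (0.884), Itgbl1 (0.878) and Gsn (0.877). These values are across types of the same samples and are a description. Bmper is a secreted modulator of bone morphogenetic proteins, Ednra is an endothelin receptor and Tcf21 is a transcription factor of lung fibroblasts that was also 1 of the alveolar fibroblast markers.

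Adra1d, the alpha-1D receptor, had the fewest transcripts of the alpha-1 members over all cells, and smooth muscle cells and pericytes were its leading type. Of its 35 transcripts, 18 (51.4%) were in that type, which held 0.467% of all transcripts, and its pooled level there was 14.2 CPM (95% Poisson interval 8.42 to 22.4, counting error only). Alveolar fibroblasts held 13 Adra1d transcripts, at 0.243 CPM (0.130 to 0.416). Per kb of exon, Adra1d had a pooled 7.48 CPM in smooth muscle cells and pericytes, beside 2.71 for Adra1a and 1.63 for Adra1b in the same type, from 18, 30 and 7 transcripts. Without division by exon length the pooled levels were 14.2 CPM for Adra1d, 23.7 CPM for Adra1a and 5.52 CPM for Adra1b, so the order depended on the scale. The Adra1d transcripts there came from 17 cells of 11 samples. Those cells had 7434 CPM of muscle markers and 1703 CPM of pericyte markers, against 8725 and 1254 CPM in the 650 cells without Adra1d. The predicted gene Gm14285 overlaps Adra1d on the opposite strand, and the sources used here do not say whether counting used strand, so reads of both cannot be told apart.

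Adra2a, the alpha-2A receptor, gave 109 transcripts in 104 cells of 11 types. Alveolar macrophages held 57 of them (52.3%) and 35.7% of all transcripts, at a pooled 0.589 CPM (0.446 to 0.763), and alveolar fibroblasts held 23, at 0.430 CPM. Interstitial macrophages had 0.853 CPM (0.390 to 1.62) from 9 transcripts and ciliated cells 0.900 CPM (0.109 to 3.25) from 2. The intervals of these 4 types overlapped. Alveolar type 2 cells had 0 Adra2a transcripts, with an interval up to 0.221 CPM, below that of both macrophage types and of alveolar fibroblasts (0.273 to 0.646). Adra2b, the alpha-2B receptor, gave 13 transcripts in 12 cells. Aerocytes, the capillary endothelial cells of gas exchange (annotated aCap), held 7 of these in 6 cells of 3 samples, at a pooled 1.69 CPM (0.678 to 3.47), while they held 1.53% of all transcripts. Those 6 cells had 2519 CPM of aerocyte markers, against 1645 CPM in the 1883 other aerocytes. Adra2c, the alpha-2C receptor, had 0 transcripts in 80449 cells, which allows a level of up to 0.0111 CPM over all cells at a floor of 3 counts.

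**Figure D2:**
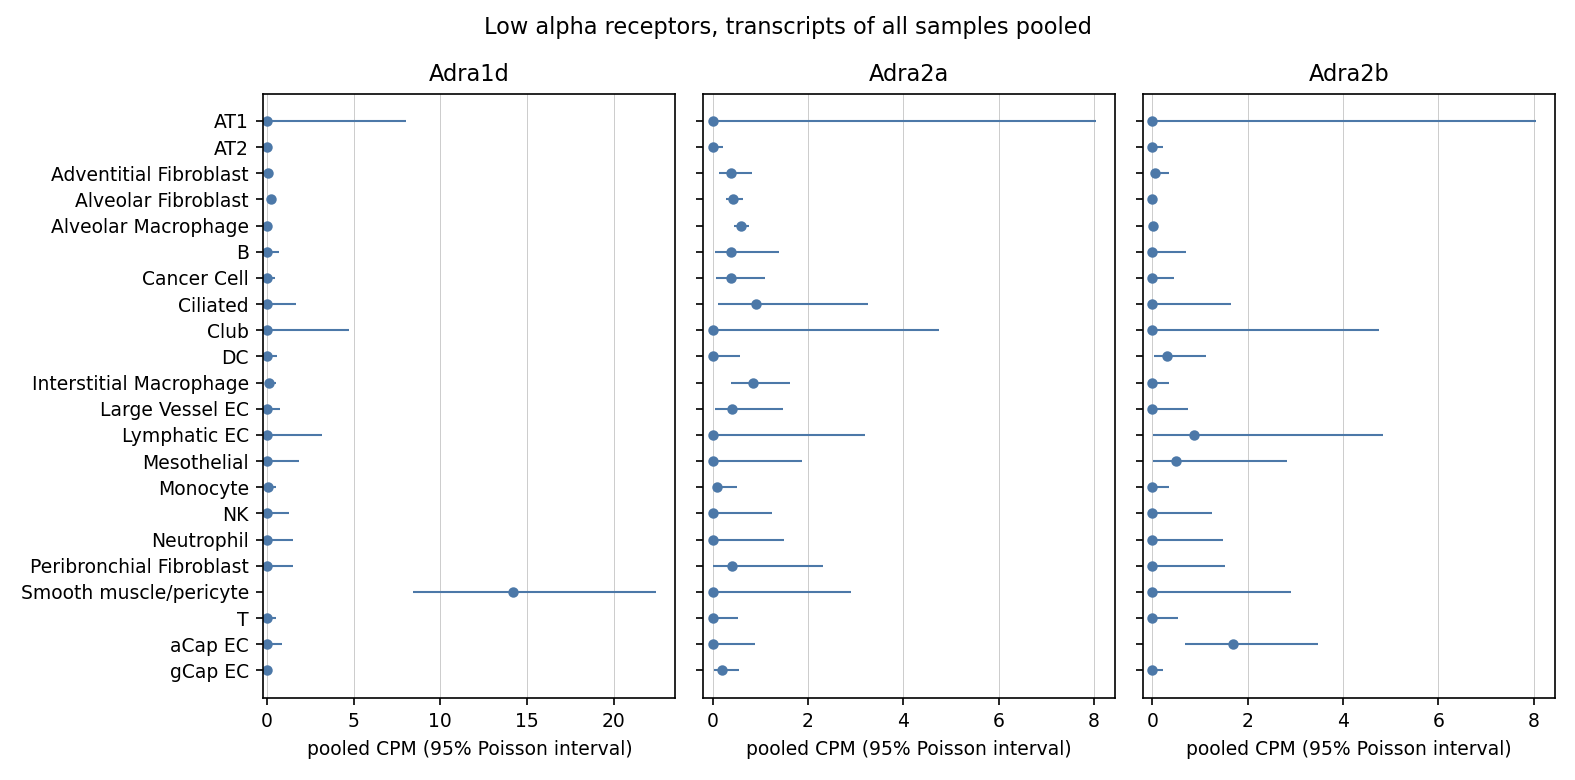
Pooled level in CPM of Adra1d, Adra2a and Adra2b by cell type over all samples, with 95% Poisson intervals as bars. Adra1d reaches 14.2 CPM in smooth muscle cells and pericytes against 0.243 CPM in alveolar fibroblasts, Adra2b has 1.69 CPM in aerocytes, and the Adra2a intervals of ciliated cells, interstitial and alveolar macrophages and alveolar fibroblasts overlap.

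Between groups, the receptors high enough to be tested were Adra1a in alveolar, peribronchial and adventitial fibroblasts and alveolar macrophages, and Adra1b in alveolar and adventitial fibroblasts. These 6 tests were run in each comparison on counts summed per sample and type, with edgeR's quasi-likelihood test and Benjamini-Hochberg adjustment over all genes of the type. Values below are CPM after TMM scaling, unless called raw. Marker levels and sums, levels of Slc6a2 and levels of receptors too low for the fit are raw as well. Adra1a in alveolar fibroblasts had 284 and 269 CPM in BIBO3304-PDAC, against 597, 723 and 722 CPM in BIBO3304 without PDAC cells. Every BIBO3304-PDAC sample was lower than every BIBO3304 sample. The means were 277 ± 10.96 CPM (SD, n = 2) and 681 ± 72.3 CPM (n = 3), and Adra1a fell, with a log2 fold change of -1.30 and an SE of 0.21 (adjusted p = 0.00184). It was the 1 receptor test of 6 to pass. Of all genes tested in the 4 types, 3.74% passed in this comparison, and of the 12626 tested in alveolar fibroblasts 9.95% passed (684 higher and 572 lower), with 42 genes at a smaller p than Adra1a and a median log2 fold change over all genes of 0.013.

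No such difference passed the test under vehicle, where alveolar fibroblasts had 482 and 455 CPM in vehicle-PDAC, against 510, 318 and 461 CPM in vehicle. The groups overlapped, and the log2 fold change was 0.12 with an SE of 0.20 (adjusted p = 0.948), or 0.17 (adjusted p = 0.868) without the second vehicle-PDAC sample. The difference between the effects of BIBO3304 with and without PDAC cells was tested as an interaction. It was -1.42 on the log2 scale (SE 0.28, adjusted p = 0.0307 by edgeR's quasi-likelihood test), the 1 receptor test of 6 to pass, beside 0.276% of all genes in the 4 types and 0.752% of those in alveolar fibroblasts (36 higher and 59 lower). Without the vehicle-PDAC sample that held no cancer cell it was -1.48 (adjusted p = 0.0256). The adjusted p was 0.0608 when only the compared groups were fitted, and between 0.0551 and 0.163 without 1 of 4 single samples. These were the second BIBO3304-PDAC, the first vehicle-PDAC and the second vehicle and the third vehicle samples. Without the second BIBO3304-PDAC sample the fall with PDAC cells under BIBO3304 was -1.26 (adjusted p = 0.0584).

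Each of the 2 drug effects behind this interaction was also tested on its own, and neither passed. Without PDAC cells BIBO3304 had a higher mean than vehicle, 681 ± 72.3 against 430 ± 99.9 CPM (SD, n = 3 each), with no overlap between the samples, but the log2 fold change of 0.66 (SE 0.18) had an adjusted p of 0.0713. No receptor test of 6 passed there, beside 0.462% of all genes. With PDAC cells BIBO3304-PDAC averaged 277 ± 10.96 CPM and vehicle-PDAC 469 ± 19.3 CPM (SD, n = 2 each), again with no overlap, and the log2 fold change was -0.76 (SE 0.22, adjusted p = 0.239), or -0.82 (adjusted p = 0.211) without the second vehicle-PDAC sample. No receptor test of 6 passed there either, beside 0.00532% of all genes, and 1 of 6 had an unadjusted p under 0.05. DESeq2 called Adra1a in alveolar fibroblasts in both, with log2 fold changes of 0.66 (adjusted p = 0.0117) and -0.77 (adjusted p = 0.0301).

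**Figure D3:**
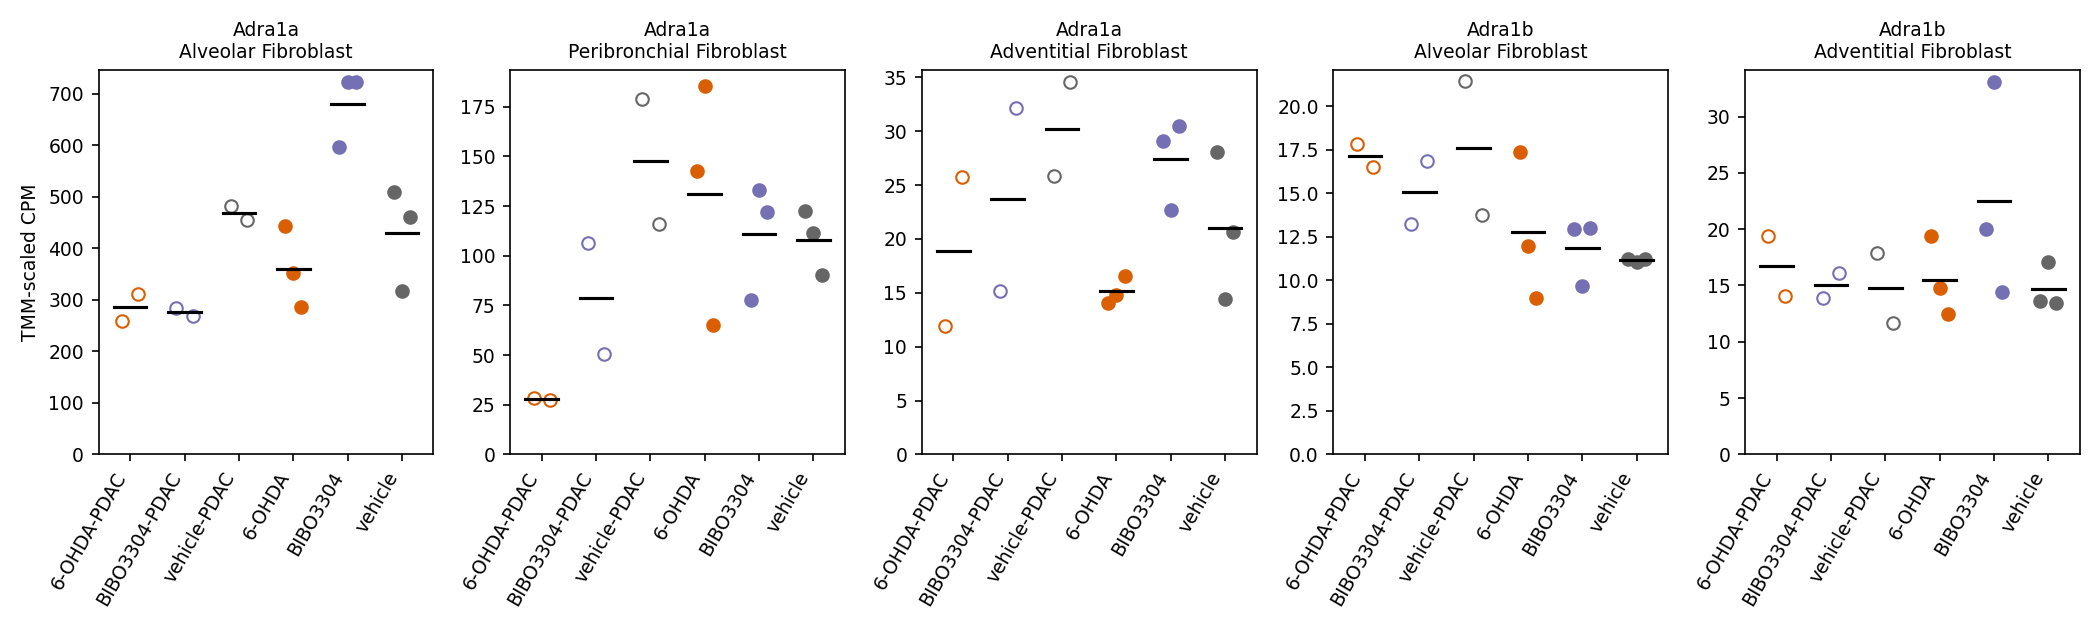
TMM-scaled CPM per sample of Adra1a in 3 fibroblast types and Adra1b in 2, by group, with open dots for samples with PDAC cells, filled dots for samples without, and lines at group means. In alveolar fibroblasts Adra1a sits at 284 and 269 CPM in BIBO3304-PDAC and at 597, 723 and 722 CPM in BIBO3304.

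The depth of alveolar fibroblasts differed between these groups. Their median was 1630.5 to 2804 transcripts per cell in BIBO3304-PDAC samples, 3382 to 6759 in BIBO3304 samples and 1519 to 1918 in vehicle samples. The share of cells with Adra1a was 31.3 to 38.7% in BIBO3304-PDAC, against 68.8 to 75.1% in BIBO3304, and after thinning to 1000 transcripts 21.2 to 22.9%, against 39.3 to 43.2%. The groups did not overlap before or after thinning. In cells of 2000 to 5000 transcripts alone, an alternative chosen after seeing the data, raw levels were 281 and 222 CPM in BIBO3304-PDAC, against 602, 638 and 783 CPM in BIBO3304. The log2 fold change there was -1.26 (adjusted p = 0.00435), and the interaction was -1.41 with an adjusted p of 0.0555.

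Markers of alveolar fibroblasts moved in the same comparison. Their summed level in alveolar fibroblasts was 1856 to 2088 CPM in BIBO3304-PDAC samples, against 2553 to 3671 CPM in BIBO3304 samples. Of the 5 markers 3 fell: Npnt, an extracellular matrix protein (log2 fold change -0.90, adjusted p = 0.00662), Tcf21 (-0.87, adjusted p = 0.0206) and Slc7a10, an amino acid transporter (-0.63, adjusted p = 0.0246). In the interaction 0 of 5 passed, with Tcf21 at -1.11 (adjusted p = 0.0809) and Inmt at -0.04. Alveolar macrophage markers in the same cells summed to 147 to 251 CPM in BIBO3304-PDAC samples, against 43.4 to 133 CPM in BIBO3304 samples. Alveolar fibroblast marker sums were also lower with PDAC cells under the other treatments. They were 1734 to 1980 CPM in 6-OHDA-PDAC, against 2901 to 3147 CPM in 6-OHDA. In vehicle-PDAC they were 2167 to 2200 CPM, against 2507 to 3393 CPM in vehicle. Npnt passed under 6-OHDA too (log2 fold change -0.81, adjusted p = 0.0341 by edgeR), and none of these markers passed under vehicle. The part of all these markers in the Adra1a result was not tested.

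**Figure D4:**
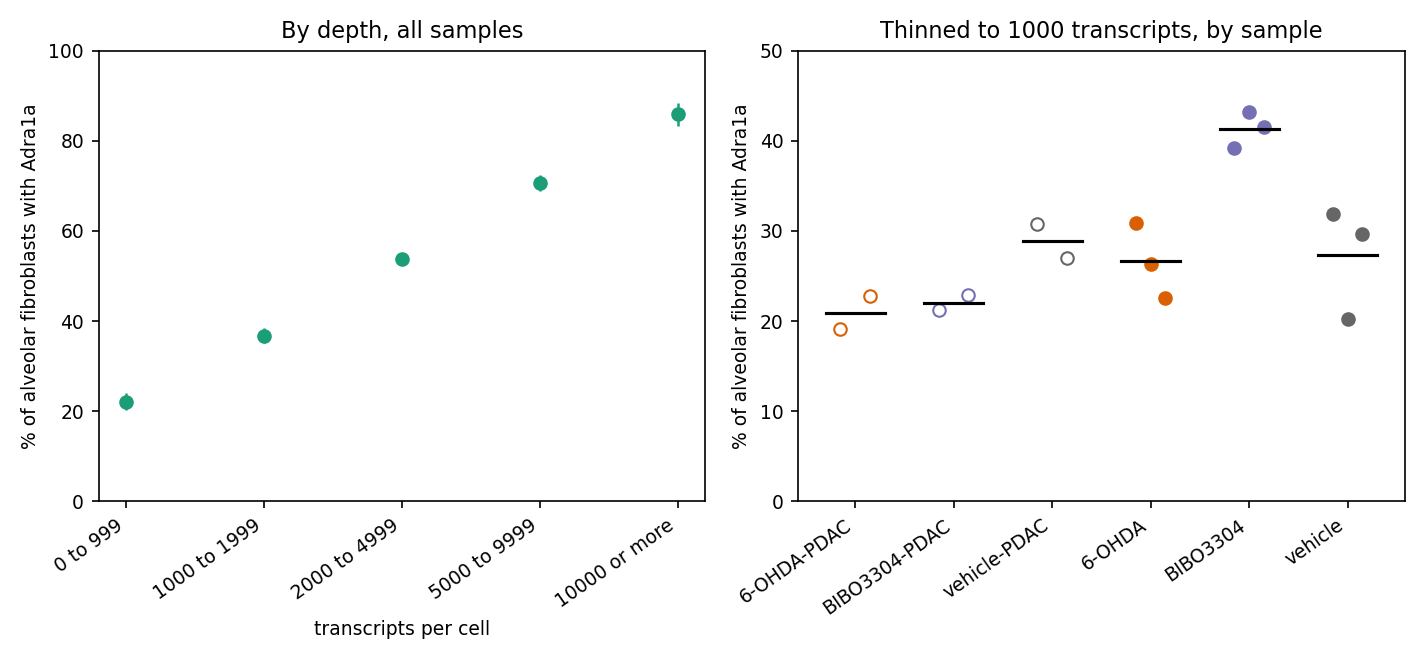
Left, percent of alveolar fibroblasts with an Adra1a transcript by transcripts per cell, with 95% intervals, running from 22.1% under 1000 transcripts to 86.0% from 10000. Right, the percent per sample after thinning each cell to 1000 transcripts, by group, with lines at group means; BIBO3304-PDAC samples lie at 21.2 to 22.9% and BIBO3304 samples at 39.3 to 43.2%.

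6-OHDA changed no receptor past the threshold. Adra1a in alveolar fibroblasts had 259 and 312 CPM in 6-OHDA-PDAC, against 482 and 455 CPM in vehicle-PDAC. The samples did not overlap, but the log2 fold change of -0.71 (SE 0.22) had an adjusted p of 0.218, and without the second vehicle-PDAC sample it was -0.76 (adjusted p = 0.387). Here 0 of 6 receptor tests passed, beside 0.104% of all genes, and 2 had an unadjusted p under 0.05. Without PDAC cells alveolar fibroblasts had 443, 352 and 286 CPM in 6-OHDA, against 510, 318 and 461 CPM in vehicle, which overlapped (log2 fold change -0.26, adjusted p = 0.775). The 259 and 312 CPM of 6-OHDA-PDAC overlapped those of 6-OHDA as well (log2 fold change -0.33, SE 0.20, adjusted p = 0.512). In 6-OHDA against vehicle without PDAC cells 0 of 6 receptor tests passed, beside 0.0133% of all genes, with none at an unadjusted p under 0.05 and none called by DESeq2. All comparisons against vehicle-PDAC, or against vehicle, share those control samples.

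Adra1a in peribronchial fibroblasts had the largest fitted changes under 6-OHDA, on few transcripts. It had 28.2 and 27.2 CPM in 6-OHDA-PDAC, against 179 and 116 CPM in vehicle-PDAC and 142, 186 and 65.0 CPM in 6-OHDA. The 6-OHDA-PDAC samples were below all of these, but they held 2 and 4 Adra1a transcripts, against 35 and 13 in vehicle-PDAC and 9, 15 and 5 in 6-OHDA. The log2 fold change was -2.43 (SE 0.60, adjusted p = 0.187) against vehicle-PDAC and -2.22 (SE 0.62, adjusted p = 0.257) against 6-OHDA. The 6-OHDA interaction was -2.69 (SE 0.75, adjusted p = 0.567). In the other groups peribronchial Adra1a had 107 and 50.6 CPM in BIBO3304-PDAC, 77.9, 133 and 122 CPM in BIBO3304 and 123, 111 and 90.2 CPM in vehicle, which overlapped. Without the second vehicle-PDAC sample the log2 fold change against vehicle-PDAC was -2.65 (adjusted p = 0.198) and the interaction -2.92 (adjusted p = 0.531). None of these tests passed, and in the fits with all samples the unadjusted p-values by edgeR were 0.000312, 0.00108 and 0.00111. Peribronchial markers in these cells summed to 4312 to 4998 CPM in 6-OHDA-PDAC, 4520 to 6590 CPM in vehicle-PDAC and 6013 to 9533 CPM in 6-OHDA samples, and their part was not tested.

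None of the remaining receptor tests passed. With PDAC cells under 6-OHDA, 0 of 6 tests passed beside 0.388% of all genes, and under vehicle 0 of 6 beside 0.00266%; 1 of 6 in each had an unadjusted p under 0.05, and DESeq2 called none. The 6-OHDA interaction gave 0 of 6 beside 0.00532%, with 1 unadjusted p under 0.05 and none called by DESeq2. Adventitial fibroblasts had 15.2 and 32.2 CPM of Adra1a in BIBO3304-PDAC, against 29.1, 22.7 and 30.5 CPM in BIBO3304, and 11.9 and 25.80 CPM in 6-OHDA-PDAC, against 25.85 and 34.5 CPM in vehicle-PDAC. The BIBO3304-PDAC and BIBO3304 samples overlapped, and both 6-OHDA-PDAC samples were lower than both vehicle-PDAC samples after scaling only. In raw CPM they overlapped, with 11.1 to 30.6 CPM in 6-OHDA-PDAC, from 19 transcripts, and 25.9 to 26.7 CPM in vehicle-PDAC. In that type Adra1a log2 fold changes ran from -0.76 to 0.47 over the comparisons and interactions, with 0.611 as the lowest adjusted p. In alveolar macrophages the group means of Adra1a were 2.35 to 4.38 CPM.

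Adra1b in alveolar fibroblasts had 21.4 and 13.7 CPM in vehicle-PDAC, against 11.2, 11.04 and 11.2 CPM in vehicle. Both vehicle-PDAC samples were higher, yet the log2 fold change of 0.69 (SE 0.26) had an adjusted p of 0.491; without the second vehicle-PDAC sample it was 0.94 (adjusted p = 0.199). In BIBO3304-PDAC it had 13.2 and 16.9 CPM, against 12.9, 9.66 and 12.98 CPM in BIBO3304, so the fall of Adra1a there was not shared in sign by Adra1b; the difference between the genes was not tested. In adventitial fibroblasts Adra1b had 20.1, 33.1 and 14.4 CPM in BIBO3304, against 13.6, 17.0 and 13.5 CPM in vehicle, which overlapped (log2 fold change 0.66, SE 0.33, adjusted p = 0.419).

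Receptors too low for the fit were compared by exact two-sided permutation tests over samples in their leading types, 28 tests in all. They were Adra1b and Adra1d in smooth muscle cells and pericytes, Adra2a in alveolar macrophages and Adra2b in aerocytes. The smallest p these designs allow is 0.1 with 3 against 3 samples, 0.2 with 2 against 3 and larger with 2 against 2. The smallest found was 0.2, and every adjusted p was 1. Adra1d in smooth muscle cells and pericytes had 1 transcript in BIBO3304-PDAC, against 6 in BIBO3304, with mean levels of 5.22 and 23.5 CPM (exact permutation p = 0.2). By sample these were 1 and 0 transcripts in BIBO3304-PDAC, against 2, 2 and 2 in BIBO3304. With these numbers of samples no such test could pass 0.05 at any depth.

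By comparison, 0.00266% to 3.74% of all genes tested in the 4 types passed. Of 48 other genes of the adrenergic pathway, 13 tests passed over all comparisons in the same 4 types, out of 113 per comparison, and 11 of these were in alveolar fibroblasts. With PDAC cells under BIBO3304, 8 genes passed there, 3 higher and 5 lower, beside 9.95% of all genes tested in alveolar fibroblasts. Among 14 of 15 genes of the Gq arm that could be tested, 0 were higher and 3 lower, with a median log2 fold change of -0.14 beside 0.013 over all genes. Gna14, a G protein subunit of the Gq class, had 15.8 and 6.95 CPM in BIBO3304-PDAC, against 45.7, 49.7 and 55.4 CPM in BIBO3304. All BIBO3304-PDAC samples were lower, and Gna14 fell by 1.95 in log2 terms (adjusted p = 0.00158). Itpr1, the type 1 inositol trisphosphate receptor, had 289 and 263 CPM against 430, 608 and 450 CPM in the same groups and fell by 0.84 (adjusted p = 0.00845). Prkca, protein kinase C alpha, averaged 948 and 1558 CPM in the same groups and fell by 0.71 (adjusted p = 0.0322).

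Of 11 genes that switch off G protein-coupled receptors, 9 were tested in alveolar fibroblasts, with 3 higher, 1 lower and a median of 0.53. Rgs2, which limits Gq signalling, averaged 183 CPM in BIBO3304-PDAC and 108 CPM in BIBO3304 and rose by 0.77 (adjusted p = 0.0299). Grk3, a receptor kinase, and Arrb2, a beta-arrestin, rose by 1.58 (adjusted p = 0.0180) and 1.03 (adjusted p = 0.0491). Grk5, another receptor kinase, fell by 0.75 (adjusted p = 0.0347), with 588 CPM in BIBO3304-PDAC and 990 CPM in BIBO3304. Of 8 genes of the Gi/o list 4 were tested, and of 11 genes of catecholamine handling 5, with 0 passing in either and a median of -0.09 in both. Among the beta receptors, Adrb3 had 15.2 and 13.9 CPM in BIBO3304-PDAC, against 34.8, 43.1 and 30.9 CPM in BIBO3304, and fell by 1.29 (adjusted p = 0.00258).

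Without PDAC cells Gna14 was higher by 1.09 (adjusted p = 0.0281) and Itpr1 by 0.64 (adjusted p = 0.0468) in BIBO3304 than in vehicle in alveolar fibroblasts. Of the 12626 genes tested there, 70 passed as higher and 86 as lower. In the BIBO3304 interaction Gna14 alone of these pathway genes passed, at -2.35 (SE 0.40, adjusted p = 0.0122), beside 0.752% of all genes in alveolar fibroblasts. Adrb3 was at -1.10 (adjusted p = 0.0809). Outside alveolar fibroblasts the calls were those of Slc6a2, the norepinephrine transporter through which 6-OHDA enters cells, in adventitial fibroblasts. Slc6a2 was also 1 of the large-vessel endothelial markers, with a mean of 486 CPM in that endothelium and 10.02 CPM in adventitial fibroblasts. In adventitial fibroblasts it had 0 and 0 transcripts in 6-OHDA-PDAC, against 65 and 52 in vehicle-PDAC (adjusted p = 0.00449 by edgeR). These samples differed in depth, with 720421 and 359406 transcripts of all genes in that type, against 2395311 and 2322357. Without PDAC cells Slc6a2 had 6, 9 and 3 transcripts in 6-OHDA, against 6, 5 and 13 in vehicle. In raw CPM these were 10.8, 12.8 and 6.44, against 5.59, 5.62 and 12.7. Its 6-OHDA interaction had an adjusted p of 0.0373 by edgeR. Without the second vehicle-PDAC sample these adjusted p-values were 0.00963 and 0.0991, so the interaction no longer passed. Vwf, another large-vessel marker, had 2.78 and 0 CPM in the adventitial fibroblasts of 6-OHDA-PDAC, against 2.92 and 5.60 CPM in those of vehicle-PDAC. Vcam1 in these cells went the other way, with 127.7 and 147.5 CPM against 123.2 and 96.9 CPM, and Bmx and Gja5 overlapped. Vwf, Bmx, Gja5 and Vcam1 together had 134.6 and 155.8 CPM in 6-OHDA-PDAC, against 131.5 and 107.6 CPM in vehicle-PDAC. Slc6a2 in large-vessel endothelium itself had 419 and 598 CPM in 6-OHDA-PDAC, against 732 and 646 CPM in vehicle-PDAC. Without PDAC cells it had 149, 118 and 98.9 CPM there in 6-OHDA, against 530, 533 and 643 CPM in vehicle. The part of endothelial RNA in the adventitial result was not tested. Over all 15 samples the highest members of 4 of the lists in alveolar fibroblasts were Prkca (1257 CPM), Grk5 (762 CPM), Gnai2 of the Gi/o list (153 CPM) and Adrb3 (24.5 CPM).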

How the data were processed

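Live-sorted lung cells were barcoded with Parse Evercode WT v3, per the labels' protocols, and the 16 sublibraries are technical splits. The deposited matrix gives raw counts of transcripts. The deposited cell table gives each cell's sample, treatment, seeding state, type and mitochondrial percent, and the matrix sums equalled its totals for 99.0% of cells. Per the submitters' processing notes, Seurat 5.3.0 and mm39 were used. Aligner, counter, use of strand and introns, and doublet handling were not given in the sources used here. Seeding state "IV" was read as PDAC cells seeded, from where annotated cancer cells lay. Every deposited cell had at least 301 genes and at most 9.99% mitochondrial transcripts.

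Depth was 10003796 to 32580698 transcripts per sample, and intervals cover counting error only. Counts were summed per sample and type (scipy 1.17.1, Python 3.11.15), leaving out samples with under 20 cells of a type. After filterByExpr and TMM scaling, 1 model per type with all 6 groups was fitted in edgeR 4.0.16 (R 4.3.3, quasi-likelihood, Benjamini-Hochberg adjustment within type and comparison, threshold 0.05), and the procedure was tested on simulated data. Interactions are a drug's effect with PDAC cells minus that without. Level comparisons used a pseudocount of 1. As alternatives, RLE scaling, an unfiltered gene set, at least 50 cells, the compared groups alone, a replicate block, DESeq2 1.42.0 and leaving out each sample were run; a fit on alveolar fibroblasts of 2000 to 5000 transcripts was added after seeing the data. No doublets were removed. Exon lengths and coding sequences are from GENCODE on GRCm38, an older build, so no coordinates are given. All 6 members are named, and other genes where they pass a comparison, lead their list in alveolar fibroblasts or are among the 5 most alike in pattern. The leading gene of 1 list is not reported here. Members, lists and tests were chosen with earlier results of these data known. Figures were drawn with matplotlib 3.10.9.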

Additional observations from a re-analysis of the deposited data

Results flagged for a closer look

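Adra1a in alveolar fibroblasts responded differently to BIBO3304 with and without PDAC cells by the test of the interaction itself, at -1.42 on the log2 scale (SE 0.28, adjusted p = 0.0307 by edgeR's quasi-likelihood test). BIBO3304-PDAC samples had 284 and 269 TMM-scaled CPM, against 482 and 455 CPM in vehicle-PDAC. BIBO3304 samples had 597, 723 and 722 CPM, against 510, 318 and 461 CPM in vehicle. The raw p was smaller for 34 of the other genes tested in alveolar fibroblasts.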

How the results depend on the processing

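No value for a receptor changed sign where it was called. The count of receptor calls for BIBO3304 against vehicle was 0 and became 1 with no gene filter (Adra1a in alveolar fibroblasts, 0.69, adjusted p = 0.00645) and 1 with DESeq2. For BIBO3304-PDAC against vehicle-PDAC it was 0 and became 1 with no gene filter (Adra1a, -0.80, adjusted p = 0.0489) and 1 with DESeq2. With PDAC cells under BIBO3304 the count was 1 and ranged from 0 to 1 over samples left out: Adra1a ran from -1.38 to -1.25, with adjusted p between 0.00318 and 0.0584, and was called in 4 of 5 such fits. For the BIBO3304 interaction the count was 1, became 0 with the compared groups alone (-1.42, adjusted p = 0.0608), and ranged from 0 to 1 over samples left out, with Adra1a between -1.55 and -1.24, adjusted p between 0.0256 and 0.163, and a call in 6 of 10 fits. In the fits of single samples left out of a group of 2, the lone sample is assumed to vary like the other groups. The sample numbers come from the deposited table. Deviations of same-numbered samples from their group means correlated at -0.363 to 0.294 over 33 pairs, with 12 over 0.1. Those of differently numbered samples correlated at -0.294 to 0.363 over 60 pairs, with 13 over 0.1. In groups of 2 the deviations mirror each other, so these values cannot show whether same-numbered samples share a batch. With a replicate block for the sample number Adra1a was -1.32 with PDAC cells under BIBO3304 (adjusted p = 0.00338) and -1.43 in the interaction (adjusted p = 0.0395), and no receptor call changed. In alveolar fibroblasts of 2000 to 5000 transcripts, BIBO3304 against vehicle was 0.70 (adjusted p = 0.162) and BIBO3304-PDAC against vehicle-PDAC was -0.71 (adjusted p = 0.397). The share of alveolar fibroblasts with Adra1a was 50.2%, and 29.4% at 1000 transcripts per cell. The leading type of the rare receptors moved: mean Adra2a in ciliated cells was 1.76 CPM, 0 in vehicle samples alone and 0.582 CPM with at least 50 cells, where interstitial macrophages led with 0.993. Mean Adra2b in aerocytes was 1.17 CPM, 2.29 CPM in vehicle samples alone and 1.17 CPM with at least 50 cells, with lymphatic endothelium higher in both, at 2.41 and 3.62. Both lymphatic means rest on the 1 Adra2b transcript of that type over all samples, against 7 in aerocytes. Of pathway calls there were 13, and 12 with DESeq2. The causes of these shifts were not tested. Depth limits Adra1d, Adra2a, Adra2b and Adra2c, with 0 to 109 transcripts each; for the permutation tests on them the number of samples is the limit.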
